A study of Mus musculus with 9 samples.

Results

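Apolipoproteins are the protein parts of the particles that carry lipid through the blood. The 10 genes described here are Apoa1, Apoa2, Apoa4, Apoa5, Apob, Apoc1, Apoc3, Apoe, Apoh and Apom, taken by symbol from the 55401 genes of the deposited count table. All 10 were counted in every library, and all 10 passed the low-count filter that left 12660 genes for testing.

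The study sequenced polyadenylated RNA of male mouse liver (left lobe) with a 3' end counting method (QuantSeq), in 9 libraries of 3 groups with 3 libraries each. STAM mice were injected with 200 µg of streptozotocin, a toxin of insulin-producing cells, when 2 days old. From an age of 4 weeks they were fed a high-fat diet (HFD), which lasted 4 weeks. STAM + Atglistatin mice had the same toxin and diet, with Atglistatin in the diet. Atglistatin is a small-molecule inhibitor of adipose triglyceride lipase (ATGL), the enzyme that begins the breakdown of stored triglyceride. Chow mice received neither toxin nor Atglistatin and ate a chow diet.

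The strain is not given in the sources used here. Toxin and diet were always given together, so their parts in any difference from chow cannot be told apart. The inhibitor was eaten with the diet and so was not directed to the liver, and it was given only to mice that had both. For chow and STAM samples the treatment tag runs against the titles and the series' description, and groups were taken from the titles. The labels do not say that each library came from a different mouse, so p-values measure the spread between these samples.

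The liver secretes apolipoproteins on 2 main kinds of particle. Very low density lipoproteins (VLDL) are built around a single molecule of apoB with a triglyceride core, while high density lipoproteins (HDL) form when apoA-I takes up phospholipid and cholesterol from cells. The smaller apolipoproteins move between particles, where some help and some hinder lipoprotein lipase or the uptake of remnants by receptors. Hepatocyte nuclear receptors such as HNF4A bind many of the promoters.

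In the GRCm38 mouse genome (GENCODE M21), 4 of the genes form a cluster of 43340 bases on chromosome 9. They are Apoa1 (chr9:46228580-46230466, + strand), Apoc3 (chr9:46232933-46235636, − strand), Apoa4 (chr9:46240696-46243459, + strand) and Apoa5 (chr9:46268633-46271919, + strand). Apoc1 (chr7:19689481-19692660) and Apoe (chr7:19696109-19699188) lie together on the − strand of chromosome 7. Apoa2 (chr1:171225054-171226379, + strand), Apob (chr12:7977648-8016835, + strand), Apoh (chr11:108343354-108414396, + strand) and Apom (chr17:35128997-35132050, − strand) lie apart. Exons of Apoa4 are overlapped on the other strand by Gm47528 and Gm10680, each with 0 counts, and Apoa5 by Gm47544 with 3 counts over all 9 libraries. Apoh is overlapped on the other strand by the 5' end of Prkca, whose 974 counts were 0.764% of the counts of both genes.

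Promoter sequences from RefSeq (build GRCm38.p6; 250 bases before to 50 after an annotated start) were matched for 8 of the 10 genes, in 12 windows. Apoc1 and Apoc3 had no entry. Shown are Apoa1, which was lower in both STAM groups, its HDL partner Apoa2, which did not pass in any comparison, and Apob, which alone passed between the inhibitor and STAM groups. Capitals mark bases within 3 mismatches of a 13-base pattern, 2 copies of AGGTCA with a single A between them. It is the direct repeat that nuclear receptors of the HNF4 and PPAR kind recognise, and it was searched on both strands. Each is written 5' to 3' on the gene's strand.
Apoa1, chr9:46228380-46228679, + strand: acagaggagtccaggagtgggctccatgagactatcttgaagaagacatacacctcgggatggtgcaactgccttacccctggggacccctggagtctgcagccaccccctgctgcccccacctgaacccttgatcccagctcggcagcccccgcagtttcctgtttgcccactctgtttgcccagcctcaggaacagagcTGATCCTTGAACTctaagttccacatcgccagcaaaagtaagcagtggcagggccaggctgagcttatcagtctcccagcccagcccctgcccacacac
Apoa2, chr1:171224804-171225103, + strand: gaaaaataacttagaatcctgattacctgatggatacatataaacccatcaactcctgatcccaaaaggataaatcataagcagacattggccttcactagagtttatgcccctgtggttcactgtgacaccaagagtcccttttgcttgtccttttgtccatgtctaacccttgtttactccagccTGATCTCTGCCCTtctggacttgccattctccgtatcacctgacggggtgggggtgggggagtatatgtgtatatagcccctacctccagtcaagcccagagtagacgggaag
Apob, chr12:7977427-7977726, + strand: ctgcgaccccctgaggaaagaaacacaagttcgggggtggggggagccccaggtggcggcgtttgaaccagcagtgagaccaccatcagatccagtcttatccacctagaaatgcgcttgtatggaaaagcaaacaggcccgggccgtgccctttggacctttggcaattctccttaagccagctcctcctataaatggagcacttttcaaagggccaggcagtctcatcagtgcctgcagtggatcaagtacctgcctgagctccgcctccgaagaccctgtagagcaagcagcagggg

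With up to 3 mismatches, this letter pattern was in 4 of the 12 windows of the apolipoprotein genes and in 9.34% of the 32851 windows of all genes in the table. In the windows above it began at position -49 from the RefSeq start of Apoa1 and at -63 from that of Apoa2, on the reverse strand in both. A further window of Apoa2 held it at -245. The Apom window held GGGTCAAGGGTCG at -32 (window chr17:35131752-35132051, − strand). With up to 2 mismatches the pattern was in none of the 12 windows and in 1.46% of all windows. The letters CAAAGTCCA were in none of the 12 and in 0.475% of all windows. TATAAA was in 5 of the 12 and in 13.6% of all windows. The 5 include both windows of Apoa5, which overlap and hold the same TATAAA. The letters CACGTG were in 2 of the 12, these same Apoa5 windows, and in 7.15% of all windows. Some genes have several windows, so these are counts of windows and not of genes. The RefSeq starts of Apoa1, Apoa4, Apob and Apom lie 50, 148, 29 and 249 bases from the GENCODE starts of these genes. That of Apoh lies 51943 bases inside the gene's GENCODE span, and its window is counted among the 12.

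Library totals lay between 7.38 and 9.89 in units of 1e6 counts. Levels below are CPM, counts scaled to a total of 1000000 after TMM adjustment of library sizes, with SD over n = 3 libraries. They serve to compare groups for 1 gene and not to rank genes against each other. Transcripts encoded in mitochondria took 7.32 to 8.78% of counts in chow, 11.0 to 11.6% in STAM and 8.64 to 9.73% in STAM + Atglistatin. Transcripts of albumin (Alb) and other secreted hepatocyte proteins were abundant in every library of this labelled liver tissue. They belong to a list of 15 hepatocyte genes that holds no apolipoprotein. The list also includes Cps1, Ass1 and Hnf4a, which do not encode secreted proteins. Its summed level was 125360 to 135523 CPM in chow, 76816 to 87813 in STAM and 98114 to 105480 in STAM + Atglistatin.

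**Figure D1:**
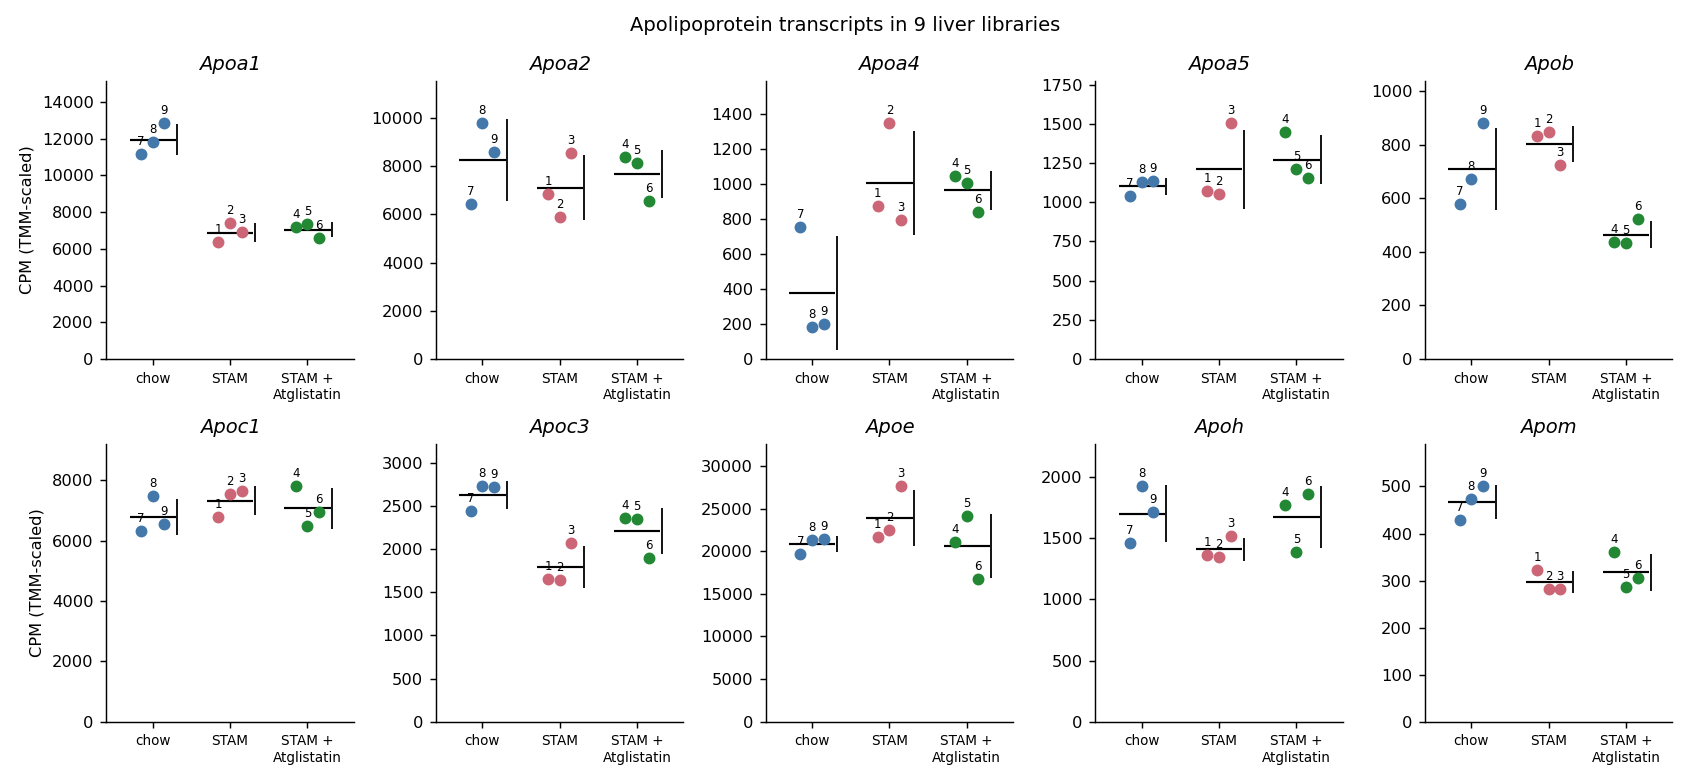
Level of each of the 10 apolipoprotein genes (y axis, TMM-scaled CPM, from 0) in the 9 libraries of the 3 groups (x axis). Points are libraries with their replicate numbers, horizontal bars are group means and vertical lines 1 SD; Apoa1 and Apom are lower in all 6 STAM libraries than in chow, and Apob is lowest in the 3 STAM + Atglistatin libraries.

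STAM was compared with chow to describe what streptozotocin and the high-fat diet together did to the liver's apolipoprotein transcripts. The HDL genes Apoa1 and Apom fell. The lipase inhibitor Apoc3 also fell, by a call that depended on which libraries were used. Apoa4 rose, by a call that depended on which libraries and tool were used. The other 6 genes, among them Apob and Apoe, did not pass. Apoa1 in STAM was 0.576 times its chow mean, Apom 0.634 times and Apoc3 0.680 times. Apoa4 was 2.66 times its chow mean.

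A gene was called at an adjusted p under 0.05 (edgeR quasi-likelihood fit, Benjamini-Hochberg adjustment over all 12660 genes). By this rule 4 of the 10 genes passed, 3 lower and 1 higher, where 3.94% of all tested genes passed (1.95% higher and 1.99% lower). The 3 STAM libraries did not overlap the 3 chow libraries for 5 of the 10 genes, against 20.7% of all tested genes. The median log2 fold change was -0.05 over the 10 genes and -0.00 over all tested genes. With library totals in place of TMM scaling, the genes passing in this comparison split into 347 higher and 205 lower instead of 247 and 252, and the same number of apolipoprotein genes passed each way.

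Apoa1 encodes apoA-I, the main protein of HDL and the activator of the enzyme that esterifies HDL cholesterol. Its level was 11178, 11843 and 12836 CPM in chow, 6350, 7403 and 6911 CPM in STAM, and 7212, 7367 and 6588 CPM in STAM + Atglistatin. Every chow library was above every STAM library with or without the inhibitor, and those 2 groups overlapped each other. The STAM mean of 6888 ± 527 CPM against 11952 ± 834 CPM in chow was a log2 fold change of -0.80 ± 0.11 (SE; edgeR adjusted p = 0.000164). It passed in all 12 alternatives, with log2 fold changes from -0.85 to -0.70. In bulk tissue, fewer hepatocytes and less RNA per hepatocyte cannot be told apart.

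Apom encodes apoM, an HDL protein that carries sphingosine-1-phosphate. It was 428, 472 and 501 CPM in chow, 323, 282 and 283 CPM in STAM, and 361, 285 and 306 CPM in STAM + Atglistatin. Chow stood above the other 2 groups without overlap, and those 2 groups overlapped. Between STAM and chow the log2 fold change was -0.66 ± 0.12 (SE; edgeR adjusted p = 0.00359), and it passed in all 12 alternatives.

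Apoa2, the gene of the other abundant HDL protein, did not follow this pattern. It was 6412, 9770 and 8602 CPM in chow, 6863, 5906 and 8554 CPM in STAM, and 8373, 8132 and 6541 CPM in STAM + Atglistatin. The 3 groups overlapped. The log2 difference between STAM and chow was -0.22, with a 95% interval from -0.55 to 0.11 (edgeR adjusted p = 0.601), so a fall of the size seen for Apoa1 lies outside the interval.

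Other hepatocyte genes moved with Apoa1 and Apom. Of the 15 genes of the hepatocyte list, 8 fell and none rose in STAM against chow. Over all tested genes, 1.99% fell and 1.95% rose. The 8 were Alb, Ttr, Trf, Serpinc1, Fgb, Fgg, Ambp and Vtn, all genes of secreted proteins. At an unadjusted edgeR p under 0.05, 10 were lower and none higher. By DESeq2 and by limma-voom, 9 were lower and none higher. Alb went from 60272 ± 3641 CPM in chow to 29430 ± 2537 CPM in STAM, a log2 fold change of -1.03 ± 0.10 (SE; edgeR adjusted p = 5.30e-06). The mitochondrial share was higher in the same libraries. The sum of 7 adipocyte markers was higher there too, at 28.0 to 54.2 CPM in chow and 178 to 233 CPM in STAM. Such a sum weighs the most abundant markers most, so it need not stand for all 7. Only 3 of the 7 could be tested (median log2 fold change 0.89), and 1 passed by edgeR (Cfd, higher). By DESeq2 1 was higher and by limma-voom 3 were. In STAM 3 of the 7 had no count, against 2 in chow, and Lep was at 0. What part these differences have in the fall of Apoa1 and Apom was not tested.

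Apoc3 encodes apoC-III, which inhibits lipoprotein lipase and slows the uptake of remnant particles. It was 2437, 2728 and 2713 CPM in chow, 1654, 1638 and 2067 CPM in STAM, and 2365, 2351 and 1898 CPM in STAM + Atglistatin. STAM lay below chow without overlap, and the inhibitor group lay below chow and overlapped STAM. The log2 fold change between STAM and chow was -0.56 ± 0.13 (SE; edgeR adjusted p = 0.0142). The call was lost without chow replicate 8 (adjusted p = 0.0641), chow replicate 9 (0.0570), STAM replicate 1 (0.102) or STAM replicate 2 (0.101), each with the same direction, and over all 12 alternatives the adjusted p ran from 0.000436 to 0.102.

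Apoa4 encodes apoA-IV, which is secreted on triglyceride-rich particles by the intestine and, in mice, by the liver. It was 752, 181 and 200 CPM in chow, 876, 1345 and 792 CPM in STAM, and 1046, 1007 and 837 CPM in STAM + Atglistatin. Every STAM library was above every chow library, but chow replicate 7 stood far above its group and close to the lowest STAM library. The coefficient of variation in chow was 85.9%, against 29.7% in STAM and 11.5% in STAM + Atglistatin.

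For Apoa4 the log2 fold change between STAM and chow was 1.41 ± 0.37 (SE; edgeR adjusted p = 0.0393). Without chow replicate 7 it was 2.40 (adjusted p = 1.47e-08). The call was lost in 7 of the 12 alternatives, namely DESeq2 (adjusted p = 0.173), a fit of only the 2 groups (0.1005), and leaving out chow replicate 8 (0.151) or 9 (0.152) or STAM replicate 1 (0.0852), 2 (0.199) or 3 (0.0570). Over all 12 the adjusted p ran from 2.61e-24, with no low-count filter, to 0.199. The lowest value came at a log2 fold change of 1.41, as with the filter, so it does not reflect a larger difference. The authors' deposited table gives a log2 fold change of -0.70 for chow over STAM for this gene, smaller in size than here, with an adjusted p of 0.205.

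Chow replicate 7 differed from the other 2 chow libraries in further genes. Its summed markers of recruited macrophages were 168 CPM, against 83.3 and 110 CPM in chow replicates 8 and 9. Its stellate cell and fibroblast markers summed to 904 CPM, against 585 and 602 CPM, and its cholangiocyte markers to 55.1 CPM, against 29.7 and 30.2 CPM. Whether these have a part in its Apoa4 level was not tested. Enterocyte markers were at or near 0: the 8 of them summed to between 0.241 and 0.443 CPM in chow and between 0.331 and 0.472 CPM in STAM, with Cdx1 and Cdx2 at 0 in all 9 libraries. In STAM + Atglistatin they summed to 4.32 CPM in replicate 6, 0.301 CPM in replicate 4 and 0 in replicate 5.

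Apoa5, beside Apoa4 in the cluster, encodes apoA-V, which promotes the lipase's action on triglyceride-rich particles. It was 1042, 1130 and 1133 CPM in chow, 1074, 1055 and 1503 CPM in STAM, and 1448, 1211 and 1157 CPM in STAM + Atglistatin. STAM overlapped chow, and its mean rested on STAM replicate 3. The log2 difference between STAM and chow was 0.14, with a 95% interval from -0.16 to 0.43 (edgeR adjusted p = 0.746), and without STAM replicate 3 it was -0.05.

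The cluster on chromosome 9 therefore held 2 genes that fell, 1 that rose and 1 that did not pass between STAM and chow. Only the Apoa1 call held in all 12 alternatives. That of Apoc3 was lost in 4 of them and that of Apoa4 in 7. The ratio of Apoa5 to Apoa1 counts within a library was 0.0883 to 0.0955 in chow, 0.143 to 0.218 in STAM and 0.164 to 0.201 in STAM + Atglistatin. The ratio of Apoa4 to Apoa1 counts was 0.0153 to 0.0673 in chow, 0.115 to 0.182 in STAM and 0.127 to 0.145 in STAM + Atglistatin. Both ratios were higher in all 6 STAM libraries than in any chow library. For Apoa4 to Apoa1 this follows from the levels given above. Every library of both STAM groups was higher than chow for Apoa4 and lower for Apoa1. In STAM + Atglistatin the ratio of Apoa5 to Apoa1 follows in the same way. The ratios reuse the same counts and are not further evidence. For Apoc3 to Apoa1 the ranges were 0.211 to 0.230 in chow, 0.221 to 0.299 in STAM and 0.288 to 0.328 in STAM + Atglistatin, with chow and STAM overlapping.

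**Figure D2:**
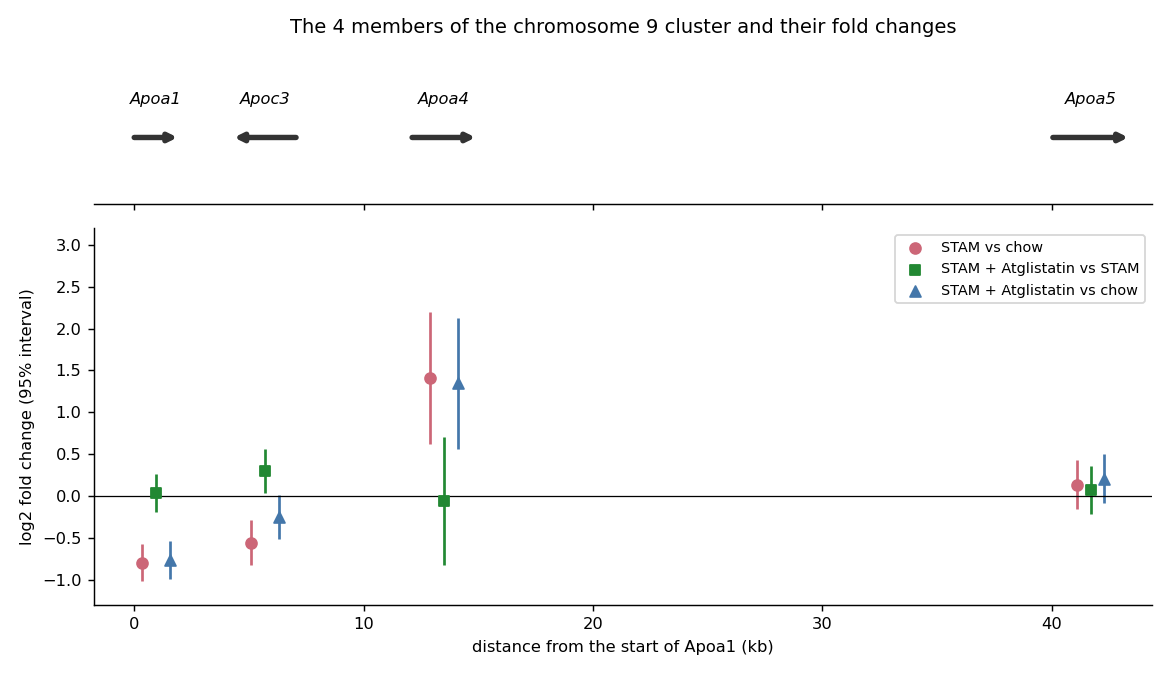
The 4 genes of the chromosome 9 cluster drawn to scale with their direction of transcription (top; x axis, distance from the start of Apoa1 in kb), and below each its log2 fold change in the 3 comparisons. Points are edgeR estimates and bars 95% intervals; Apoa1 and Apoc3 lie below 0 and Apoa4 above 0 between STAM and chow, while Apoa5 spans 0.

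Apob, Apoe and Apoc1 form or coat the particles that leave the liver with triglyceride, and none of them passed between STAM and chow. Apob was 577, 671 and 879 CPM in chow and 831, 849 and 725 CPM in STAM, with overlapping libraries (log2 difference 0.18, 95% interval -0.13 to 0.48; edgeR adjusted p = 0.652). Apoe, whose product is the ligand for the uptake of remnants by the liver, was 19715, 21312 and 21418 CPM in chow and 21622, 22485 and 27633 CPM in STAM. All 3 STAM libraries were above the 3 chow libraries for Apoe, yet the log2 difference of 0.20 had a 95% interval from -0.08 to 0.48 and an edgeR adjusted p of 0.548. Macrophages also make apoE, and the 10 Kupffer cell markers summed to between 370 and 560 CPM over all 9 libraries, with overlapping groups.

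Apoc1, which lies beside Apoe and encodes an exchangeable protein that hinders remnant uptake, overlapped between the groups. It was 6323, 7469 and 6543 CPM in chow and 6779, 7559 and 7644 CPM in STAM, a log2 difference of 0.11 with a 95% interval from -0.12 to 0.35 (edgeR adjusted p = 0.739). Apoh encodes a plasma glycoprotein that binds negatively charged phospholipids. It was 1461, 1924 and 1715 CPM in chow and 1365, 1348 and 1519 CPM in STAM, with a log2 difference of -0.27 and a 95% interval from -0.55 to 0.01 (edgeR adjusted p = 0.364). Chow replicate 7 lay within the STAM range for Apoh.

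**Figure D3:**
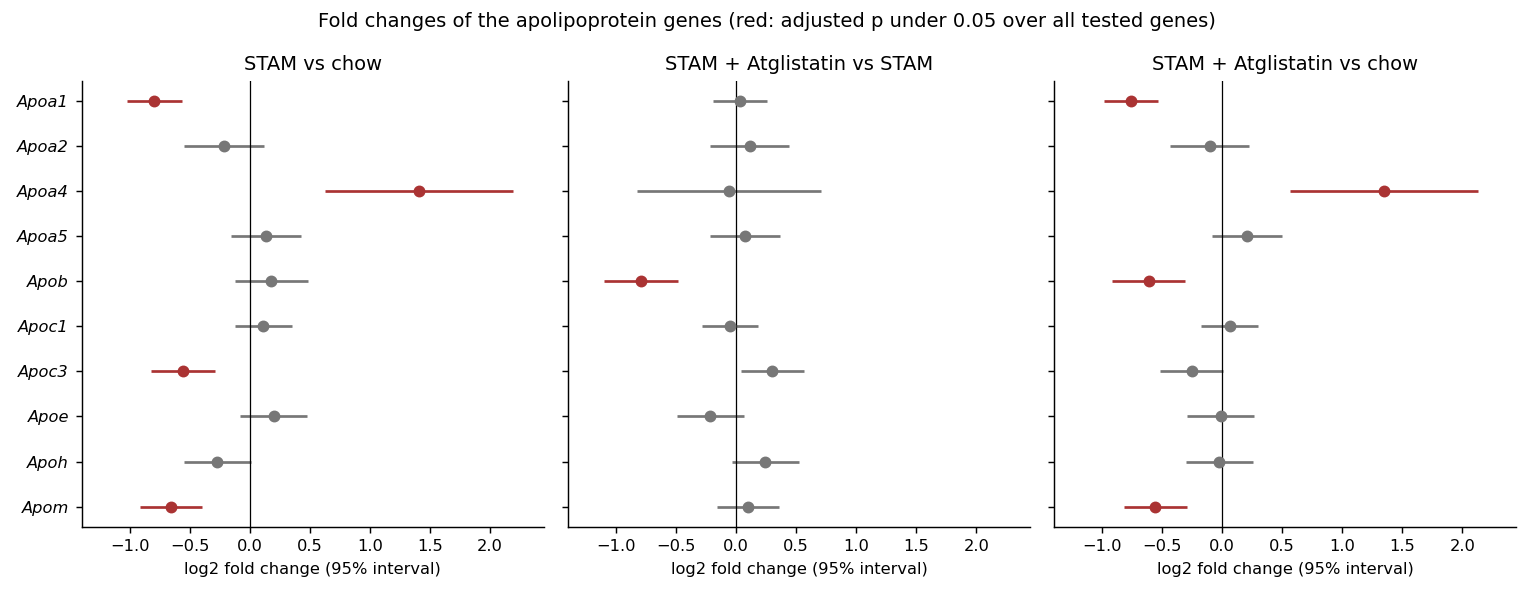
Log2 fold change (x axis) of each apolipoprotein gene (y axis) in the 3 comparisons, with 95% intervals from edgeR. Red marks an adjusted p under 0.05 over all tested genes; 4 genes are red against chow in each STAM group, and Apob alone is red between STAM + Atglistatin and STAM.

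STAM + Atglistatin was compared with STAM to describe what the ATGL inhibitor did in mice with the same toxin and diet. Apob, the scaffold of VLDL, fell to 0.578 times its STAM mean. The other 9 genes did not pass. Apoa1, Apom and Apoa4 differed by little beside their change between STAM and chow, and Apoc3 had a higher mean that did not pass. In all, 1 of the 10 genes passed, and it was lower, where 1.79% of all tested genes passed (1.04% higher and 0.742% lower). The median log2 fold change over the 10 genes was 0.05, against -0.00 over all tested genes.

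Apob was 831, 849 and 725 CPM in STAM and 436, 432 and 522 CPM in STAM + Atglistatin. The groups did not overlap, which was true of 17% of all tested genes in this comparison and of none of the other 9 genes. The means were 802 ± 66.9 and 463 ± 51.0 CPM, a log2 fold change of -0.79 ± 0.14 (SE; 95% interval -1.10 to -0.49; edgeR adjusted p = 0.00466). It passed in all 12 alternatives, with log2 fold changes from -0.89 to -0.74 and adjusted p up to 0.0479. Beside the fall of Apob, Alb rose to 45651 ± 672 CPM with the inhibitor (log2 fold change 0.63 ± 0.10 SE, edgeR adjusted p = 0.00159). By edgeR it was the only gene of the 15 on the hepatocyte list to pass. At an unadjusted edgeR p under 0.05, 4 of the 15 were higher and none lower. By DESeq2 1 was higher and by limma-voom 2 were, with none lower. The 7 adipocyte markers summed to 178 to 233 CPM in STAM and 33.7 to 38.0 CPM in STAM + Atglistatin. Such a sum weighs the most abundant markers most. Only 3 of the 7 could be tested (median log2 fold change -1.03), of which 2 were lower (Cfd and Lipe). Lep was at 0 in all 9 libraries. The part of either in the Apob difference was not tested. The chow libraries, at 577 to 879 CPM, also lay above all 3 STAM + Atglistatin libraries. In mouse liver part of the Apob message is edited to encode a shorter protein, and counts at the 3' end do not separate the edited and unedited forms.

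**Figure D4:**
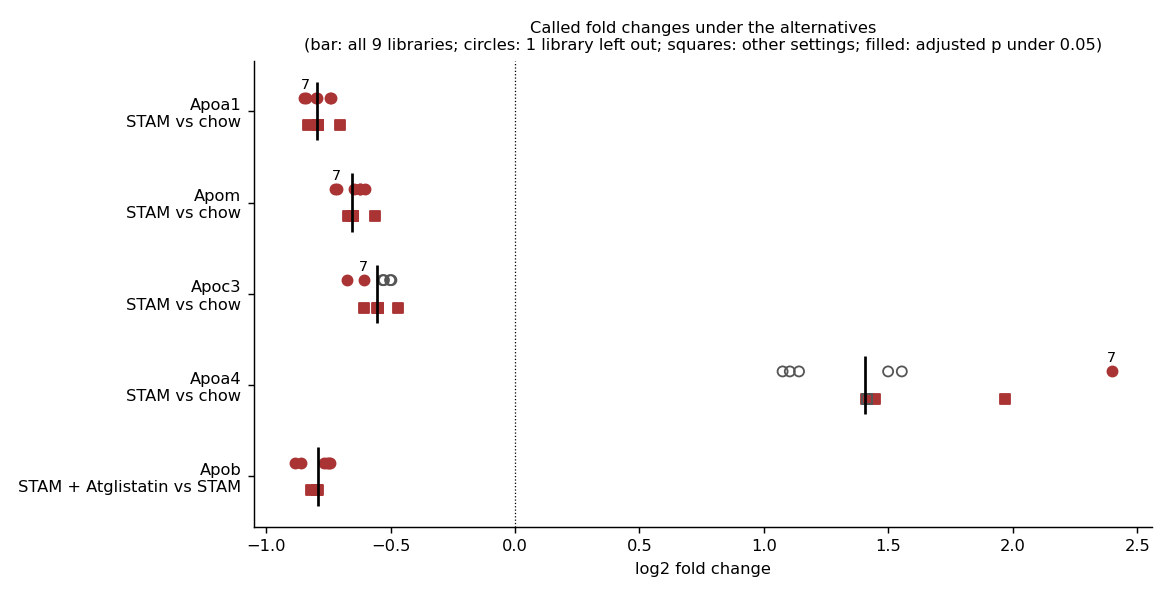
Log2 fold change (x axis) of the 5 gene and comparison pairs called between STAM and chow or between STAM + Atglistatin and STAM, with all 9 libraries (vertical bar) and under the alternatives. Circles leave out 1 library (7 marks chow replicate 7), squares are other settings, and filled symbols have an adjusted p under 0.05; Apoa1, Apom and Apob stay filled throughout, and Apoa4 moves to 2.40 without chow replicate 7.

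For the genes that had changed between STAM and chow, the values with the inhibitor are given beside it, with the reminder that both comparisons use the same 3 STAM libraries. Apoa1 differed by a log2 value of 0.03 between STAM + Atglistatin and STAM, with a 95% interval from -0.19 to 0.26 (edgeR adjusted p = 0.963). Apom differed by 0.10, with an interval from -0.16 to 0.36 (adjusted p = 0.879). For both genes the interval does not reach the size of the difference between STAM and chow.

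Apoa4 differed by -0.06 between STAM + Atglistatin and STAM, with a wide interval from -0.83 to 0.71 (edgeR adjusted p = 0.982). Apoc3 was 2205 ± 266 CPM with the inhibitor and 1786 ± 243 CPM without, a log2 difference of 0.30 with an interval from 0.04 to 0.57 (unadjusted p = 0.0261, adjusted p = 0.373). STAM replicate 3, at 2067 CPM, lay above STAM + Atglistatin replicate 6, at 1898 CPM. A return of Apoc3 toward its chow level was thus not called.

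Apoe was 21106, 24073 and 16698 CPM with the inhibitor, the widest relative spread of that gene in any group (coefficient of variation 18.0%). Its log2 difference from STAM was -0.21, with an interval from -0.49 to 0.06 (edgeR adjusted p = 0.656). Apoh was 1768, 1384 and 1861 CPM with the inhibitor and differed by 0.24, with an interval from -0.03 to 0.52 (adjusted p = 0.579). For Apoa2, Apoa5 and Apoc1 the differences were 0.11, 0.07 and -0.05, all with adjusted p above that of Apoh.

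The STAM + Atglistatin libraries were also compared with chow, which combines the toxin, the diet and the inhibitor. Apoa1, Apom and Apob were lower and Apoa4 was higher, 4 of 10 genes, where 4.08% of all tested genes passed (2.1% higher and 1.97% lower). The groups did not overlap for 6 of the 10 genes, against 18.6% of all tested genes. Chow libraries are shared with the comparison of STAM and chow, so the 2 sets of values are not independent. The median log2 fold change was -0.06 over the 10 genes and -0.00 over all tested genes. With library totals, genes passing split into 359 higher and 184 lower instead of 266 and 250.

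The hepatocyte list moved with these falls. Of its 15 genes 7 were lower than in chow and none was higher, where 1.97% of all tested genes were lower. By DESeq2 and by limma-voom 8 were lower and none higher. At an unadjusted edgeR p under 0.05, 9 were lower and none higher. The part of this list in the falls of the apolipoprotein genes was not tested. Apoa1 was 7056 ± 412 CPM with the inhibitor, a log2 fold change from chow of -0.76 ± 0.11 (SE; edgeR adjusted p = 0.000269) that passed in all 12 alternatives. Apom was 317 ± 39.0 CPM, a log2 fold change of -0.56 ± 0.12 (SE; adjusted p = 0.0134). The Apom call was lost without STAM + Atglistatin replicate 5 (adjusted p = 0.0866), chow replicate 8 (0.0502) or chow replicate 9 (0.0736), in a range from 0.000394 to 0.0866 over all 12. Apob was lower than in chow by a log2 fold change of -0.61 ± 0.14 (SE; adjusted p = 0.0197), and this call was lost without STAM + Atglistatin replicate 4 (0.103) or 5 (0.109), without chow replicate 9 (0.145), or in a fit of only the 2 groups (0.0518), in a range from 0.000161 to 0.145.

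Apoa4 against chow had a log2 fold change of 1.35 ± 0.37 (SE; edgeR adjusted p = 0.0494) with the inhibitor. It was 2.34 without chow replicate 7 (adjusted p = 1.38e-08). Over all 12 alternatives the adjusted p ran from 3.46e-22 to 0.212. The lowest came with no low-count filter, at the same log2 fold change of 1.35. Of the 12 alternatives, 8 lost the call. They were library totals (0.0623), DESeq2 (0.212), a fit of only the 2 groups (0.0994), and leaving out STAM + Atglistatin replicate 4 (0.160), 5 (0.160) or 6 (0.0700) or chow replicate 8 (0.179) or 9 (0.196). The authors' deposited log2 fold change of Apoa4 in this comparison is 0.66, with an adjusted p of 0.254. Apoc3 lay below chow in all 3 libraries at a log2 difference of -0.25, with a 95% interval from -0.52 to 0.01 (adjusted p = 0.360). Apoa5 lay above chow in all 3 libraries at 0.21, with an interval from -0.08 to 0.50 (adjusted p = 0.545). Apoa2 and Apoc1 differed from chow by -0.10 and 0.06, and Apoe and Apoh by -0.01 and -0.02, which became 0.0722 and 0.06655 with library totals.

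Summed over the 10 genes, apolipoprotein transcripts took a similar share of counts in each group. In chow the share was 5.25 ± 0.0940%, against 5.28 ± 0.340% in STAM and 5.02 ± 0.485% with the inhibitor, and the ranges of the 3 groups overlapped. Without Apoe, the other 9 genes took 3.17 to 3.37% in chow, 2.76 to 2.95% in STAM and 2.75 to 3.11% in STAM + Atglistatin, below chow in all 6 STAM libraries. The make-up of the sum differed. Apoa1 gave 20.6 to 22.7% of the members' counts in chow, 12.0 to 14.8% in STAM and 13.9 to 15.2% in STAM + Atglistatin. Apoe gave 37.1 to 39.2% in chow, 45.1 to 47.9% in STAM and 38.5 to 45.7% in STAM + Atglistatin. These are shares of 3' end counts and carry no test, since the sum over chosen genes is a description.

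Genes of other apolipoproteins and of the steps that apolipoproteins take part in were read from the same fit. Of 24 other apolipoprotein genes 13 could be tested, and 5 rose and none fell in STAM against chow (median log2 fold change 0.40), where 1.95% of all tested genes rose and 1.99% fell. They were Apol9a, Apol9b and the serum amyloid A genes Saa1, Saa2 and Saa3, whose products ride on HDL in the acute phase. Saa1 was 86.1 ± 21.9 CPM in chow, 243 ± 104 CPM in STAM and 104 ± 18.1 CPM in STAM + Atglistatin. Its log2 fold changes were 1.50 ± 0.24 between STAM and chow (SE; edgeR adjusted p = 0.000950) and -1.22 ± 0.24 between STAM + Atglistatin and STAM (adjusted p = 0.00802).

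Saa2 moved in the same directions, with log2 fold changes of 2.07 ± 0.26 (SE; edgeR adjusted p = 7.46e-05) and -1.29 ± 0.25 (adjusted p = 0.00759), and these were the only 2 of the 13 that passed between the 2 STAM groups (median -0.33), where 0.742% of all tested genes were lower. Saa1 and Saa2 are near-identical copies, and how reads that fit both were counted is not given in the sources used here. Of the 24 genes, 8 had no count in any library. Among these was Apoc2, which encodes the activator of lipoprotein lipase (chr7:19671579-19677941, − strand). The overlapping gene Gm44805 on the same strand (chr7:19671584-19681423) also had 0 counts, so the table gives no measure of Apoc2, while its neighbour Apoc4 was at 1434 ± 73.2 CPM in chow.

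Genes that load lipid onto apoB and carry it out of the cell formed a list of 18. Of all tested genes, 3.94% passed between STAM and chow and 1.79% between the STAM groups. By edgeR none of 18 passed between STAM and chow (median -0.17), where 3 were lower and none higher at an unadjusted p under 0.05, and 1 was lower and none higher by DESeq2 and by limma-voom. Between STAM + Atglistatin and STAM 1 passed (median 0.10). That gene was Tm6sf2, a membrane protein needed for lipid loading of VLDL, at 43.8 ± 7.03 CPM in STAM and 77.7 ± 11.6 CPM with the inhibitor. Its log2 fold change of 0.83 ± 0.16 (SE; edgeR adjusted p = 0.00799) was opposite in direction to that of Apob. Mttp, the transfer protein that lipidates apoB, was 165 ± 35.3 CPM in chow, 145 ± 14.4 CPM in STAM and 161 ± 13.1 CPM in STAM + Atglistatin, and did not pass in any comparison.

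Of 12 genes of HDL formation and remodelling, Cd36 and Abcg1 rose and Pltp fell between STAM and chow, where 3.94% of all tested genes passed, and none passed between the 2 STAM groups by edgeR, DESeq2 or limma-voom (edgeR unadjusted p under 0.05: 1 higher and 2 lower). Pltp, which transfers phospholipid onto HDL, went from 51.6 ± 20.3 CPM in chow to 16.0 ± 4.24 CPM in STAM (log2 fold change -1.68 ± 0.29 SE; edgeR adjusted p = 0.00157). It fell in the same comparison as Apoa1 and Apom. Cd36, a fatty acid and scavenger receptor, went from 19.5 ± 6.22 to 94.2 ± 7.95 CPM (2.26 ± 0.19 SE; adjusted p = 8.23e-07). Medians of the list were -0.13 and 0.04 in the 2 comparisons.

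Among genes of lipolysis and clearance, Lsr and Angptl8 fell between STAM and chow and did not pass between the 2 STAM groups. Lsr, a receptor for triglyceride-rich particles, went from 331 ± 22.2 CPM in chow to 222 ± 7.78 CPM in STAM (log2 fold change -0.58 ± 0.12 SE; edgeR adjusted p = 0.00587), and it was 275 ± 25.2 CPM in STAM + Atglistatin. Angptl8, an inhibitor of lipoprotein lipase in concert with a related protein, was 110 ± 75.2 CPM in chow and 29.8 ± 8.20 CPM in STAM, with overlapping libraries (-1.89 ± 0.43 SE; adjusted p = 0.0159). It was 79.6 ± 20.5 CPM in STAM + Atglistatin.

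Of 33 transcription factors and cofactors known to act on apolipoprotein promoters, Nr1i3 rose and Foxa3 fell between STAM and chow by edgeR. Of all tested genes 3.94% passed. By DESeq2 3 of the 33 were higher and 2 lower, and by limma-voom 1 was higher and 2 lower. Of all genes, 639 and 729 passed either way by these tools. At an unadjusted edgeR p under 0.05, 5 were higher and 4 lower, against 1841 of all 12660 tested genes either way. None passed between STAM + Atglistatin and STAM by edgeR, DESeq2 or limma-voom. At an unadjusted edgeR p under 0.05, 3 were higher and 2 lower there, against 1284 of all 12660 tested genes either way. Foxa3 went from 129 ± 9.41 to 92.9 ± 7.73 CPM (log2 fold change -0.48 ± 0.12 SE; edgeR adjusted p = 0.0342). Hnf4a, which encodes the nuclear receptor whose kind of site was searched in the promoters, had a log2 difference of -0.26 (adjusted p = 0.338) and did not pass. Creb3l3, a liver factor that acts on Apoa4, was 430 ± 27.2 CPM in chow and 522 ± 23.9 CPM in STAM (0.28 ± 0.12 SE; adjusted p = 0.282).

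Genes whose levels followed Apoa4 and Apoa1 most closely over the 9 libraries were taken from 3706 tested genes with a mean log2 CPM of at least 5. For Apoa4, whose group means span the widest range of the 10, they were Rtn4 (Pearson r = 0.989), Mfge8 (0.972), Acot2 (0.958), Kansl3 (0.950) and Plvap (0.941). Acot2, a mitochondrial acyl-CoA thioesterase, was 38.2 ± 33.4 CPM in chow, 116 ± 4.68 CPM in STAM and 140 ± 31.8 CPM in STAM + Atglistatin, so its chow libraries were as scattered as those of Apoa4. For Apoa1 they were Fgb (0.981), Eea1 (0.980), Gcat (0.971), Slco2a1 (0.967) and Trf (0.958). Fgb and Trf encode the fibrinogen beta chain and transferrin, secreted liver proteins of the hepatocyte list. The points share libraries and group differences, and these values describe likeness over 9 libraries only.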

How the data were processed

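Liver RNA of 3 groups with 3 libraries each was analysed. Per the labels' protocols, polyadenylated RNA was made into QuantSeq 3' libraries; per the submitters' processing notes, reads were aligned with STAR to GRCm38. The STAR version, counting tool, annotation release, strand handling and treatment of reads with several matches were not given in the sources used here. A table deposited by the authors holds raw counts per gene. It also holds the authors' log2 fold changes, p-values and adjusted p-values, used here for 1 gene only. Its 7 ribosomal RNA entries (0.260 to 0.529% of counts) were left out.

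The test was edgeR 4.0.16 (R 4.3.3) on the counts, with TMM scaling, filterByExpr, 1 fit of all 9 libraries with group means, and quasi-likelihood tests with Benjamini-Hochberg adjustment over 12660 genes (threshold 0.05). The common biological coefficient of variation was 0.236. Of the gene identifiers, 55141 were in GENCODE M21. The members and gene lists were chosen with earlier results of these data known. All 10 members are named in every comparison, and at most the 4 smallest p of another list and comparison get values; Hnf4a, Mttp, Creb3l3, Apoc2 and Apoc4 were named outside this rule after their values were seen. Some results of the lipolysis and clearance list are not reported here. Likeness is Pearson's r of log2 CPM (prior count 2). The alternatives were DESeq2 size factors, library totals, DESeq2 1.42.0, no filter on low counts, limma-voom (limma 3.58.1) with sample weights, a fit of only 2 groups, and each library of the pair left out.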

Additional observations from a re-analysis of the deposited data

How the results depend on the processing

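Of 360 recomputed fold changes (30 values under 12 alternatives each), 315 kept direction and call, 26 kept direction but lost the call, and 19 changed sign, all of values that had not passed. The cause of these changes was not tested. Most of the 30 values had not passed in the main fit, so they had no call to lose. All lost calls were of differences from chow. Of the 12 alternatives each, Apoa4 lost its call in 7 for STAM and in 8 for STAM + Atglistatin. Apoc3 lost its call in 4 for STAM, and Apob in 4 and Apom in 3 for STAM + Atglistatin. With library totals, Apoe and Apoh against chow in STAM + Atglistatin turned to 0.0722 and 0.06655. Leaving out 1 library gave ranges that cross 0 for Apoa5 between STAM and chow (-0.0489 to 0.23). Between STAM + Atglistatin and STAM this held for Apoa1 (-0.0223 to 0.0889), Apoa2 (-0.0060 to 0.27), Apoa4 (-0.21 to 0.21), Apoa5 (-0.0379 to 0.26), Apoc1 (-0.13 to 0.0073) and Apom (-0.0081 to 0.17). Between STAM + Atglistatin and chow it held for Apoa2 (-0.26 to 0.0333), Apoc1 (-0.0179 to 0.14), Apoe (-0.14 to 0.12) and Apoh (-0.12 to 0.0927). With 1 library left out, 291 to 724 genes passed between STAM and chow (499 with all), 131 to 191 between STAM + Atglistatin and STAM (226), and 309 to 757 between STAM + Atglistatin and chow (516). The 724 and 757 both came without chow replicate 7. Leaving out any other library gave fewer genes than with all. With no low-count filter, 392 genes passed between the STAM groups. Apolipoprotein genes passing with 1 library left out numbered 2 to 4 between STAM and chow, 1 between the STAM groups, and 1 to 4 between STAM + Atglistatin and chow, where a fit of only the 2 groups gave 2. Without mitochondrially encoded genes in the total, chow had a summed share of 5.71%, STAM of 5.94% and STAM + Atglistatin of 5.52%. No paired analysis was possible because the groups share no replicate numbers. With 3 libraries a group, log2 differences inside the printed 95% intervals were not resolved.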
